A study of Mus musculus with 2 samples.

Results

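The expression of 9 chemokine receptor genes was compared between mouse skin wounds with and without the transcription factor PU.1. The genes were picked by symbol from the 24346 genes listed in both libraries, and all 9 were found. Of these, 6 encode signalling receptors of leukocytes (Ccr1, Ccr2, Ccr7, Cxcr2, Cxcr4 and Cx3cr1), and 3 encode atypical receptors of tissue cells (Ackr2, Ackr3 and Ackr4). Chemokines are small secreted proteins that guide leukocytes. A signalling chemokine receptor spans the membrane in several helices and passes the signal to an inhibitory G protein, which starts directed migration. An atypical receptor binds chemokines too, but it does not couple to G proteins in this way. It takes the bound chemokine into the cell, where much of it is degraded, and so shapes the gradients that leukocytes follow in skin.

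Wounds were made in the back skin of 1-day-old C57BL/6J pups, either wild type (WT) or lacking PU.1 (PU.1-/-, labelled PU.1_KO), which were littermates. Wounds were collected 24 h later, and mRNA was sequenced as 1 library per genotype. The accompanying design text calls the wounds excisional and the methods call them incisional, and neither source states how many pups, or of which sex, went into a library. PU.1 is encoded by Spi1 and is needed for myeloid development. The deletion was present in every cell of the animal, since it is a germline knockout, so leukocytes and skin cells carried it alike.

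Values are FPKM, the fragments of a gene scaled to exon length and to the mapped fragments of the library, so that levels can be compared between genes as well as between libraries. With 1 library per genotype there was no replicate spread and no test. Ratios were taken after values below 0.1 FPKM were raised to 0.1, and a ratio of at least 2 in either direction was called lower or higher in the PU.1-/- wound. Reads were estimated from FPKM, transcript length and the depth of each library, which was about 1.38e+07 fragments for WT and 1.59e+07 for PU.1-/-. The 95% intervals given are exact binomial (Clopper-Pearson) intervals on these reads and cover counting error only. Spi1 (chromosome 2, 91082374 to 91115759, mm10) had 35.4 FPKM in WT tissue and 1.45 FPKM in PU.1-/- tissue, a 24.3-fold difference (interval 18 to 34.2), which fits the genotype labels. Markers of myeloid cells and mast cells were lower with it. All 9 listed neutrophil markers, all 10 macrophage and monocyte markers and all 7 mast cell markers were at least 2-fold lower, against none of 6 fibroblast, 6 blood endothelial and 5 keratinocyte markers. In bulk tissue, fewer cells of a type and less RNA per cell cannot be told apart.

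The 9 genes share a short coding stretch that is known as the DRYLAIV region, at the inner end of the third membrane helix, where signalling receptors contact the G protein. It is shown here because, in textbook accounts, atypical receptors carry changes somewhere in this stretch. The sequences were read from the GENCODE transcripts on GRCm38 (mm10), each lies in a coding exon, and capitals mark the second codon of the stretch.
Ccr1: gacAGAtacctggccattgtc
Ccr2: gatAGGtacttggctattgtt
Ccr7: gacCGCtacgtagccatcgtc
Cxcr2: gacCGCtacctggccattgta
Cxcr4: gacCGGtacctcgctattgtc
Cx3cr1: gacCGGtaccttgccatcgtc
Ackr2: gacAAAtacctggagattgtc
Ackr3: gacCGCtatctctccatcacc
Ackr4: gacAGAtattgggcaattacc
The capital codon encodes arginine in 8 of the 9 genes and lysine in Ackr2 alone. The search for the stretch allowed only arginine or lysine at this codon, so no other residue could appear. It also required aspartate before this codon, tyrosine after it, and isoleucine or valine just before the last codon. Ackr3 and Ackr4 are not set apart from the signalling receptors by the capital codon. They differ at the last codon, which encodes threonine in both and valine in the rest. Where the other genes have alanine, Ackr2 has glutamate and Ackr3 has serine. At the codon before that, Ackr4 has tryptophan, Ccr7 has valine and the rest have leucine. The stretch starts at codon 130 of 355 in Ccr1 (chr9:123964084-123964104, minus strand) and at codon 150 of 373 in Ccr2 (chr9:124106132-124106152, plus strand). It starts at codon 153 of 378 in Ccr7 (chr11:99145618-99145638, minus strand), at codon 142 of 359 in Cxcr2 (chr1:74158772-74158792, plus strand), at codon 135 of 359 in Cxcr4 (chr1:128589500-128589520, minus strand) and at codon 127 of 354 in Cx3cr1 (chr9:120051936-120051956, minus strand). Among the atypical receptors, it starts at codon 140 of 378 in Ackr2 (chr9:121908978-121908998, plus strand). In Ackr3 it starts at codon 141 of 362 (chr1:90214241-90214261, plus strand), and in Ackr4 at codon 136 of 350 (chr9:104099321-104099341, minus strand).

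Lower receptor genes were found among the signalling class only, but not all of that class were lower. Of the 8 receptor genes that reached 0.1 FPKM in either library, 3 were lower in the PU.1-/- wound (Ccr1, Ccr2 and Ccr7), against 6.49% of the 16298 genes measured to the same floor. Ackr2 alone was higher, against 3.47% of those genes. The other 4, Cxcr2, Cxcr4, Ackr3 and Ackr4, were within 2-fold, and Cx3cr1 was below 0.1 FPKM in both libraries. All 3 lower genes were signalling receptors, out of 5 measured, and the call on Ccr7 rests on few reads. None of the 3 atypical receptors was lower, but 3 genes are too few to set against a share of 6.49%. Among genes of at least 1 FPKM, the background was 4.45% lower and 1.71% higher, and 7 of the 9 receptor genes reached that level. On the log2 scale of PU.1-/- over WT, the median was −0.50 for the 8 measured receptor genes and −0.01 for all genes measured. The 9 were chosen with earlier results of these data known, so their counts are a description.

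**Figure D1:**
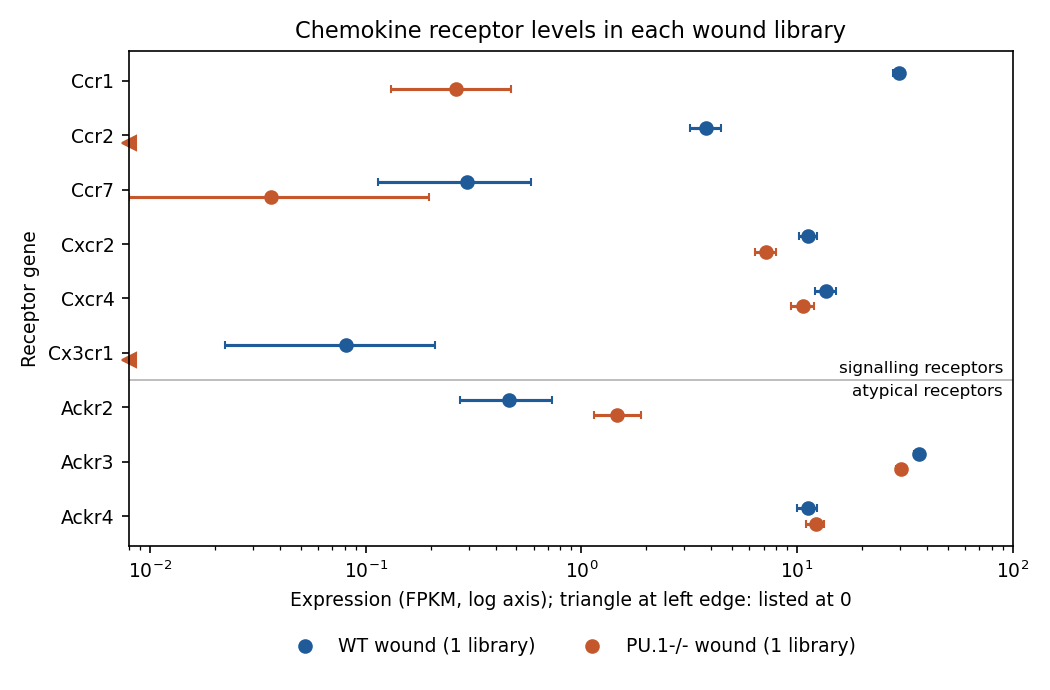
Level of each receptor gene in the WT wound (blue) and the PU.1-/- wound (orange), in FPKM on a log axis, 1 library each, with bars for the 95% counting interval and a triangle where a gene is listed at 0. Ccr1 stands at 29.6 and 0.263 FPKM and Ccr2 at 3.77 FPKM and 0, while Cxcr2, Cxcr4, Ackr3 and Ackr4 lie at 7.17 FPKM or above in both libraries.

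Ccr1, a receptor of monocytes, macrophages and neutrophils for several inflammatory CC chemokines, lies on chromosome 9 from 123962126 to 123968692. It had 29.6 FPKM in the WT wound, about 1076 reads, and 0.263 FPKM in the PU.1-/- wound, about 11 reads. This was a 112-fold difference (interval 62.5 to 226), and of the 9 genes it had the largest ratio among those detected in both libraries. Ccr1 was the highest of the 6 signalling receptors in the WT wound. In the PU.1-/- wound it stood below Cxcr4 and Cxcr2.

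Ccr2, which brings monocytes from bone marrow and blood into inflamed tissue, lies on chromosome 9 from 124101918 to 124109140. It had 3.77 FPKM in the WT wound, about 146 reads, and was listed at 0 in the PU.1-/- wound. A count of 0 allows up to 3 reads, or 0.0676 FPKM, and the WT level was 55.9 times that limit. The 95% interval, which also covers counting error in the WT value, put Ccr2 at least 44.9-fold lower, or 33.1-fold with its shortest coding transcript. Of the 2925 runs of 75 bases in its transcript, 78 (2.67%) also occur elsewhere among the transcripts.

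Markers of the cells that carry these receptors moved with them. The summed level of the 10 macrophage and monocyte markers was 650 FPKM in WT tissue and 11.8 FPKM in PU.1-/- tissue. Adgre1, which encodes the macrophage surface protein F4/80, had 11.6 FPKM and was listed at 0, and Csf1r, the receptor for the macrophage growth factor, had 15 and 0.684 FPKM. The part of these cells in the levels of Ccr1 and Ccr2 was not tested.

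Ccr7, which guides dendritic cells and T cells along lymphatic vessels to lymph nodes, lies on chromosome 11 from 99144199 to 99155077. It had 0.294 FPKM in the WT wound, about 7 reads, and 0.0366 FPKM in the PU.1-/- wound, about 1 read. The ratio of the deposited values was 8.04 with an interval of 1.03 to 362, and 2.94 after the PU.1-/- value was raised to 0.1 FPKM. The call on Ccr7 therefore rests on few reads, and it was lost at a fold threshold of 3. T cell markers were lower in 4 of the 6 measured (summed level 4.55 and 1.2 FPKM), with Cd3d, Cd3e and Cd3g listed at 0 in the PU.1-/- wound. These calls rested on about 21, 7 and 14 WT reads. Cd247, also called lower, had about 9 and 4 reads (interval of the ratio 0.721 to 11.5). Lck was within 2-fold, with 1.43 and 1.11 FPKM, and made up most of the PU.1-/- sum. Of the 5 measured dendritic and Langerhans cell markers, 1 was lower and 1 was higher, and the defining markers Cd207 and Flt3 were listed at 0 in both libraries. Their part in the level of Ccr7 was not tested.

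Cxcr2, the main receptor of neutrophils for the chemokines that draw them out of blood, lies on chromosome 1 from 74153994 to 74161246. It had 11.2 FPKM in the WT wound, about 442 reads, and 7.17 FPKM in the PU.1-/- wound, about 324 reads. The ratio of 1.57 (interval 1.35 to 1.81) was larger than counting error and below the 2-fold threshold. The PU.1-/- wound thus held Cxcr2 mRNA at 63.8% of the WT level, whereas the neutrophil markers were all lower. Their summed level was 12602 FPKM in WT tissue and 3669 FPKM in PU.1-/- tissue, and 6 of the 9 were listed at 0 there. Among those 6 were Csf3r, the receptor for the neutrophil growth factor G-CSF (1.97 FPKM in the WT wound), Fpr1, a receptor for bacterial peptides (25.3 FPKM), and Ngp, a granule protein (311 FPKM). The marker Ly6g was not among the listed symbols. S100a8 (6600 and 2129 FPKM) and S100a9 (5311 and 1516 FPKM), which keratinocytes in wounds also express, made up most of the marker sum. The other 7 neutrophil markers summed to 691 and 23.9 FPKM, or 3.46% of the WT sum, and Camp, an antimicrobial peptide, was the only one of them above 0 in the PU.1-/- wound. Which cells held the remaining Cxcr2 mRNA was not tested.

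Cxcr4, which is carried by most leukocytes and also by endothelial cells and other tissue cells, lies on chromosome 1 from 128588199 to 128592299. It had 13.6 FPKM in the WT wound, about 301 reads, and 10.6 FPKM in the PU.1-/- wound, about 271 reads, a ratio of 1.28 (interval 1.08 to 1.51). Cxcr4 was above Cxcr2 in the PU.1-/- wound by more than counting error, while in the WT wound the intervals of these 2 genes overlapped. Cxcr4 was the highest signalling receptor in the PU.1-/- wound.

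Cx3cr1, a receptor of resident macrophages and of patrolling monocytes, lies on chromosome 9 from 120048683 to 120068296. It had 0.0813 FPKM in the WT wound, about 4 reads, and was listed at 0 in the PU.1-/- wound. The interval of the WT over PU.1-/- ratio began at 0.758, so a difference was not detectable at this depth. Cx3cr1 was the lowest of the 9 genes in the WT wound, where Adgre1 and other macrophage markers were well above it.

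Ackr2, an atypical receptor of lymphatic endothelium and other skin cells that removes inflammatory CC chemokines, lies on chromosome 9 from 121898355 to 121911075. It had 0.463 FPKM in the WT wound, about 18 reads, and 1.47 FPKM in the PU.1-/- wound, about 66 reads. The PU.1-/- level was thus 3.17-fold the WT level (interval 1.87 to 5.71), a log2 ratio of 1.67. Both levels were low, and the read numbers depend on the transcript taken for the gene's length. With its shortest coding transcript of 345 nt, they came to 1 and 3 reads and the interval widened to 0.210 to 137. Whole read numbers matched the ratio of the deposited values within 0.05% at 17 and 62, and at no smaller pair. Such a match does not settle the read numbers. For Ackr3 the smallest pair was 18 and 17, beside about 1457 and 1376 reads estimated from length. Of the 5 lymphatic endothelial markers, 1 was higher and none was lower, with a median log2 ratio of 0.57. The higher one was Ccl21a, a chemokine of these vessels, with 9.61 and 25.8 FPKM. Prox1, the transcription factor that defines these vessels, had 1.19 and 2.01 FPKM, Flt4, their growth factor receptor, had 3.45 and 5.11 FPKM, and Lyve1, which macrophages of skin also express, had 38.3 and 21.5 FPKM. Pdpn, a surface protein that fibroblasts and keratinocytes also carry, had 81.7 FPKM in both libraries and made up most of the lymphatic marker sum of 134 and 136 FPKM. Skeletal muscle markers summed to 5389 and 9507 FPKM, with PU.1-/- over WT ratios from 1.56 (Tnnc2) to 2.05 (Myh3). By the same rule 2 of the 5 were higher, against 3.47% of all genes measured. A set of 5 genes is too small to compare with that share. The part of either tissue in the level of Ackr2 was not tested.

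Ackr3, a scavenger of Cxcl12 carried by endothelial and stromal cells, lies on chromosome 1 from 90203980 to 90215724. It was the highest of the 9 genes in both libraries, with 36.8 FPKM in the WT wound, about 1457 reads, and 30.3 FPKM in the PU.1-/- wound, about 1376 reads. The ratio was 1.22 (interval 1.13 to 1.31). Blood endothelial markers, with summed levels of 153 and 180 FPKM, and fibroblast markers, with 1583 and 1966 FPKM, held no gene that differed by 2-fold.

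Ackr4, which removes the chemokines that act on Ccr7 and is carried by keratinocytes and by part of the lymphatic vessels, lies on chromosome 9 from 104097682 to 104126643. It had 11.2 FPKM in the WT wound, about 338 reads, and 12.2 FPKM in the PU.1-/- wound, about 423 reads. The WT over PU.1-/- ratio of 0.918 had an interval of 0.793 to 1.06, so a difference was not detectable at this depth. Exons of Ackr4 share 352 nt (14.7%) with exons of Acad11 on the opposite strand, and 278 of its 2315 runs of 75 bases (12%) also occur there. The libraries were stranded, but whether counting used the strand is not given in the sources used here, so reads of Acad11 may be included in both values.

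**Figure D2:**
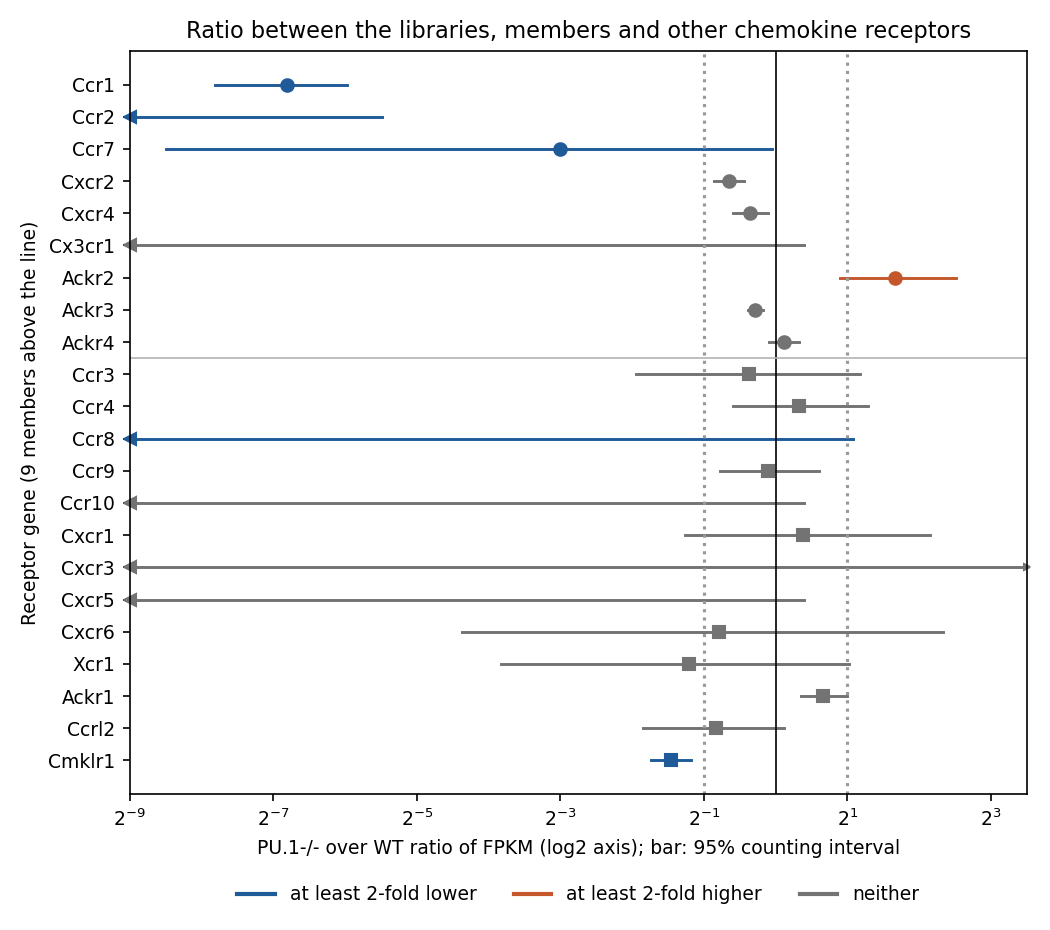
PU.1-/- over WT ratio of FPKM on a log2 axis for the 9 receptor genes (circles, above the line) and other chemokine receptors (squares), with bars for the 95% counting interval, triangles for genes listed at 0 in the PU.1-/- wound and dotted lines at 2-fold. Ccr1, Ccr2 and Ccr7 lie to the left of the 2-fold line and Ackr2, at 3.17, lies to its right.

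The order of the receptors by level differed between the libraries. In the WT wound Ackr3 led, followed by Ccr1, and then by Cxcr4, Cxcr2 and Ackr4, whose neighbouring intervals overlapped. Ccr2 came next, and Ackr2, Ccr7 and Cx3cr1 were lowest, again with overlapping intervals between neighbours. In the PU.1-/- wound Ackr3 led as well, followed by Ackr4 and Cxcr4, whose intervals overlapped, then by Cxcr2 and Ackr2. Ccr1, Ccr7, Ccr2 and Cx3cr1 stood last there, and none was separated from its neighbour by more than counting error. Ackr2 was thus above Ccr1 in the PU.1-/- wound and below it in the WT wound.

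The balance between the classes shifted toward the atypical receptors. The 6 signalling receptors summed to 58.5 FPKM in WT tissue and 18.1 FPKM in PU.1-/- tissue, and the 3 atypical receptors to 48.5 and 43.9 FPKM. The atypical receptors thus made up 45.3% of the sum of all 9 genes in the WT wound and 70.8% in the PU.1-/- wound. Ccr1 accounted for 27.7% of that sum in the WT wound and 0.424% in the PU.1-/- wound. Ackr3 accounted for 34.4% and 48.8%.

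Further receptors of the family were described from a list of 15 other genes, of which 12 reached 0.1 FPKM in 1 or both libraries. Of these, 2 (16.7%) were lower in the PU.1-/- wound (Ccr8 and Cmklr1), none was higher, and the median log2 ratio was −0.31. Over all genes measured, 6.49% were lower and 3.47% higher, and 12 genes are too few to set against these shares. Cmklr1, the receptor for the attractant chemerin, had 9.73 and 3.55 FPKM, a ratio of 2.74 (interval 2.26 to 3.33). Ccr8 had 0.229 FPKM and a value listed at 0, which rested on about 3 reads, and the interval of its ratio began at 0.475. Ackr1, the atypical receptor of venules and red blood cells, had 9.45 FPKM in WT tissue and 15 FPKM in PU.1-/- tissue. Its WT over PU.1-/- ratio was 0.630 (interval 0.50 to 0.784), which did not reach the threshold. None of Ackr1, Ackr2, Ackr3 and Ackr4 was lower by 2-fold, a set too small to compare with the share over all genes. Ccrl2, also on the list, had 0.789 and 0.444 FPKM, a ratio of 1.78 (interval 0.921 to 3.60). It was counted as lower at a fold of 1.5.

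Ccr1 and Ccr2 lie in a cluster of receptor genes on chromosome 9, and the 7 described here did not move as 1 block. The neighbours were named for their position, after their values had been seen. Ccr3, a receptor of eosinophils 55.7 kb from Ccr1 and between Ccr1 and Ccr2, had 0.212 and 0.164 FPKM, a ratio of 1.29 (interval 0.443 to 3.85). Ccr9, 195 kb to the other side of Ccr1, had 0.525 and 0.487 FPKM, a ratio of 1.08 (interval 0.655 to 1.71). Cxcr6 and Xcr1, which lie between Ccr9 and Ccr1, were at most 0.128 FPKM, and Ccr1l1 was listed at 0 in both libraries. The ratios of the deposited values were 1.72 for Cxcr6 (interval 0.197 to 20.6) and 2.30 for Xcr1 (interval 0.491 to 14.2). Of these 7, Ccr1 and Ccr2 were above 1 FPKM, and both were lower in the PU.1-/- wound. The low levels of the other 5 give wide intervals.

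**Figure D3:**
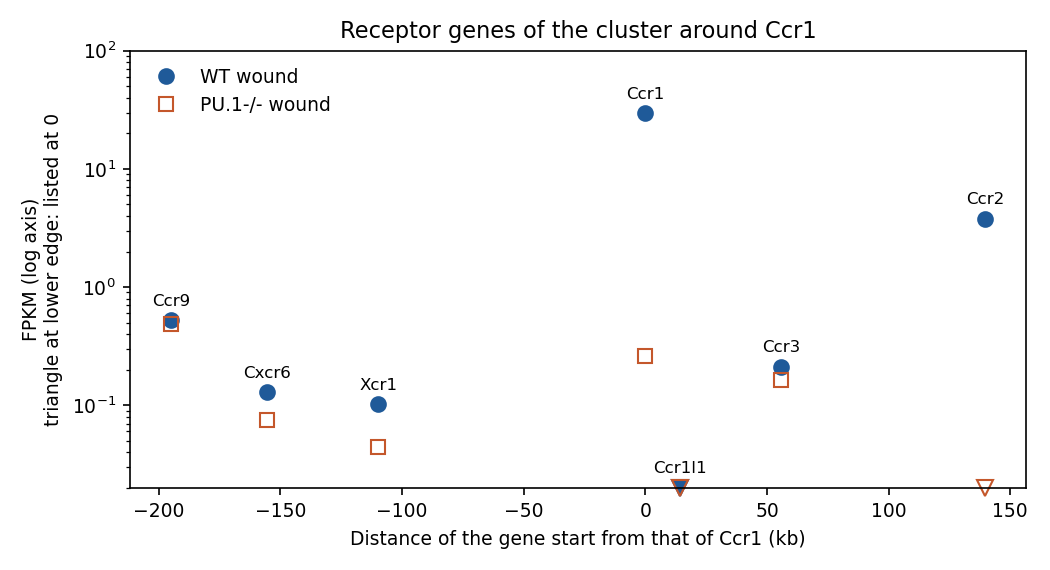
FPKM on a log axis of 7 receptor genes around Ccr1 in the WT wound (filled blue circles) and the PU.1-/- wound (open orange squares), by the distance of the gene start from that of Ccr1 in kb, with triangles for values listed at 0. Ccr1 and Ccr2 stand above 3 FPKM in the WT wound only, and the other 5 genes are below 1 FPKM in both.

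PU.1 binds a purine-rich sequence known as the PU box, with the core GAGGAA. The core was searched on both strands in the 250 bases before the RefSeq start of each gene on GRCm38. It was present in 6252 of 27025 promoters (23.1%) and in 2 of the 8 receptor genes with a promoter entry, Ccr1 and Cxcr2. Each is shown with its surroundings as read on the strand of the gene, with the core or its reverse complement in capitals.
Ccr1: ccagatgattttGAGGAAcaggatatgagt
Cxcr2: acagcctagccaTTCCTCtataggacacct
In Ccr1 the window is chr9:123968804-123968833 on the minus strand, with the core 129 nt before the start. In Cxcr2 it is chr1:74153901-74153930 on the plus strand, with the core 81 nt before the start and in the reverse orientation. Ccr1 was lower in the PU.1-/- wound by 112-fold and Cxcr2 by 1.57-fold, and Ccr2, whose window holds no such core, was listed at 0. A match of these letters is a description and not a binding site.

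Ligands were compared with their receptors from a list of 22 chemokines. In the PU.1-/- wound 11 of them were lower and 2 (Ccl21a and Ccl25) were higher, and the median log2 ratio was −0.86. The shares over all genes measured were 6.49% lower and 3.47% higher. For the signalling receptors, ligand and receptor levels did not move in 1 common pattern. The 5 listed ligands of Ccr1 summed to 843 FPKM in WT tissue and 73.9 FPKM in PU.1-/- tissue, or 8.77% of the WT sum. Ccl6 (429 and 0.871 FPKM), Ccl9 (153 FPKM and listed at 0) and Ccl3 (93.1 FPKM and listed at 0), which are made largely by myeloid cells, carried most of that difference. Ccl5, a ligand also made by T cells, had 3.18 and 2.77 FPKM.

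The ligands of Ccr2 kept a higher level than their receptor. Ccl2, the main attractant of monocytes, had 444 FPKM in WT tissue and 269 FPKM in PU.1-/- tissue, giving a ratio of 1.65 (interval 1.57 to 1.74). Ccl7 (164 and 70.3 FPKM) and Ccl12 (133 and 0.195 FPKM), which also attract monocytes, were both lower. Together they reached 340 FPKM in the PU.1-/- wound, 45.8% of the WT sum, where Ccr2 itself was listed at 0.

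The ligands of Cxcr2 divided in 2. Cxcl1 (187 and 208 FPKM) and Cxcl5 (322 and 291 FPKM), which epithelial and stromal cells make, were within 2-fold. Cxcl2 (180 and 48.4 FPKM), Cxcl3 (389 and 22.7 FPKM) and Ppbp (72.0 and 0.217 FPKM), the last a platelet and megakaryocyte product, were lower. Platelet markers other than Ppbp summed to 4.18 and 4.57 FPKM, with none of 3 differing by 2-fold. Itga2b (3.19 and 3.83 FPKM) made up most of that sum. Gp9 rested on about 3 and 5 reads, and Gp1ba had a ratio of 1.94 (interval 0.937 to 4.20). The 5 ligands together reached 49.7% of the WT sum, beside 63.8% for Cxcr2.

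Cxcl12, the ligand that Cxcr4 and Ackr3 share, had 52.1 FPKM in WT tissue and 54.8 FPKM in PU.1-/- tissue. The ligand and both of its receptors were thus within 2-fold. Cxcl11, the other ligand of Ackr3, was listed at 0 in the WT wound and had 0.137 FPKM in the PU.1-/- wound. Cx3cl1, the membrane-bound ligand of Cx3cr1, had 1.60 and 3.16 FPKM, and its WT over PU.1-/- ratio was 0.504 (interval 0.377 to 0.679), just short of the threshold.

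Ccr7 and Ackr4 share the ligands Ccl19 and Ccl21a, which stromal and lymphatic cells make. Ccl19 had 6.26 FPKM in WT tissue and 12 FPKM in PU.1-/- tissue, giving a ratio of 0.521 (interval 0.360 to 0.739). Ccl21a had 9.61 and 25.8 FPKM and was higher, a ratio of 0.373 (interval 0.290 to 0.476), and its value is uncertain because the mouse genome holds near-identical copies. Their sum was 238% of the WT sum, beside 12.4% for Ccr7 and 109% for Ackr4. Ccl25, a further ligand of Ackr4, had 0.511 and 1.19 FPKM, and the interval of its ratio (0.138 to 1.16) included 1.

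The 8 listed ligands of Ackr2 summed to 789 FPKM in WT tissue and 358 FPKM in PU.1-/- tissue, 45.4% of the WT sum. Ackr2 was thus higher beside a lower sum of the chemokines that it removes. Ccl2 made up most of what remained. Ccl4, a macrophage product, and Ccl17, a T cell attractant, were listed at 0 in the PU.1-/- wound, from 51 and 1.92 FPKM. Ccl11, the eosinophil attractant eotaxin, had 30.3 and 15.1 FPKM, a ratio of 2.01 at the edge of the threshold. Ccl22, a dendritic cell product, had 0.946 and 0.784 FPKM.

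**Figure D4:**
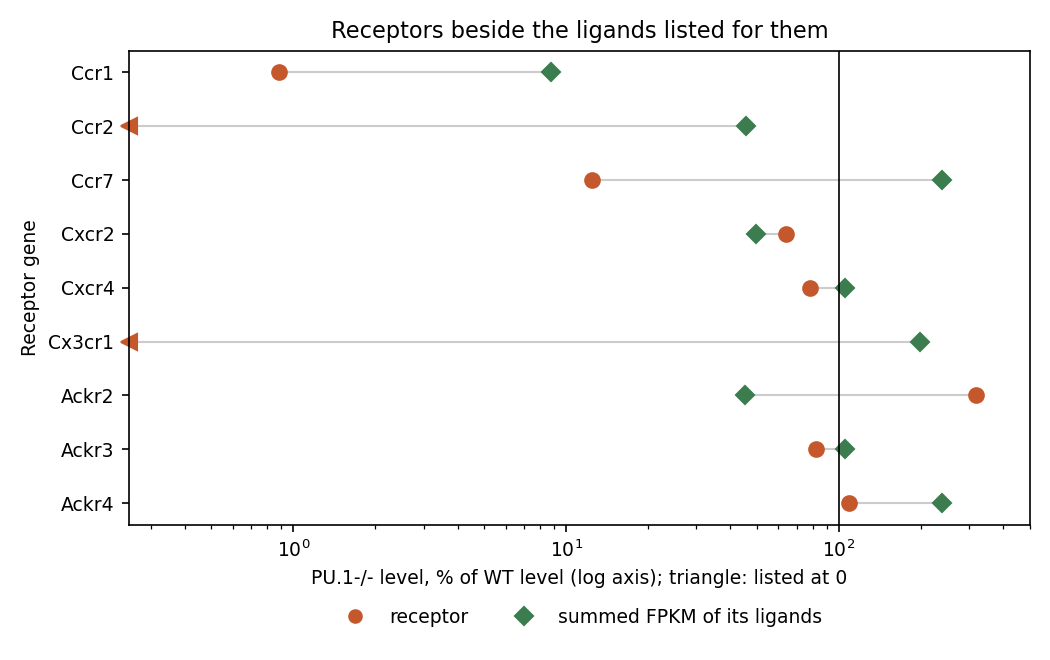
Level in the PU.1-/- wound as a percentage of the WT level, on a log axis, for each receptor (orange circles) and for the summed FPKM of its listed ligands (green diamonds), with triangles for receptors listed at 0. Ackr2 stands at 317% beside 45.4% for its ligands, and Ccr7 at 12.4% beside 238%.

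Genes that act below the receptors were described from a list of 27, all of them measured. Of these, 10 (37.0%) were lower in the PU.1-/- wound, none was higher, and the median log2 ratio was −0.41. Among all genes measured, 6.49% were lower and 3.47% higher. The genes of highest level, which most cells use, were within 2-fold. Gnai2, the inhibitory G protein subunit most used by these receptors, had 179 and 150 FPKM, Gnai3 had 96.2 and 91.5 FPKM, Gnb1 had 139 and 125 FPKM, and Rac1, a small GTPase of cell movement, had 212 and 203 FPKM. The lower genes of largest ratio are used mainly by blood cells. Rac2, the blood cell relative of Rac1, had 17.7 FPKM in the WT wound and was listed at 0 in the PU.1-/- wound. Its activators Dock2 (2.98 and 0.0101 FPKM) and Vav1 (4.26 FPKM and listed at 0) were lower with it. Rgs1, which shortens G protein signals in leukocytes, had 1.93 FPKM and was listed at 0.

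By role, 2 of 8 G proteins and their regulators, 1 of 6 receptor kinases and arrestins, and 7 of 13 effectors were lower. The share over all genes measured was 6.49%, and the sets of 8 and 6 are too small to compare with it. A difference between the roles was not tested. Arrb2, the single lower gene of the kinases and arrestins, was named after its value was seen. It encodes an arrestin that ends G protein signals and carries receptors into the cell, and it had 16.7 and 4.05 FPKM, a ratio of 4.12 (interval 3.31 to 5.16). Its relative Arrb1 had 11.4 and 10.9 FPKM, a ratio of 1.04 (interval 0.958 to 1.13). Myeloid markers were lower beside these genes, as given above for the receptors, and their part in the levels of the signalling genes was not tested.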

How the data were processed

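Bulk mRNA of 1 WT and 1 PU.1-/- wound library was analysed. The authors used a stranded kit, single-end reads of 75 bases and CASAVA 1.8.2, mapped reads to mm10 and deposited FPKM values, which the methods attribute to Cuffnorm 2.2.1. The submitters' processing notes name TopHat2 2.1.1, Bowtie2 2.2.8, SAMtools 0.1.18 and Cuffdiff 2.2.1. The annotation is not given in the sources used here.

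Ratios were formed on the deposited FPKM scale after a floor of 0.1 was applied, and calls were made at 2-fold. A ratio of 1.15 between the libraries, that of equal reads, recurred in 459 low genes. Depth was estimated from whole-read steps of low values with GENCODE lengths less 200 nt, and 78.6% of 3243 values lay within 0.15 reads of a whole number. The longest transcript was used. Intervals are exact binomial at 95%. Pups are not separate samples here, and no p-value is given. The receptor genes, lists and rules were chosen with earlier results of these data known. Named were all 9 receptors, Spi1, their ligands, the markers, and up to 4 genes of highest WT level and 4 of largest ratio per list. Positions and promoters are from RefSeq (GRCm38), matched by symbol for all 9 genes and for 8 promoters, and Ccr7 had no promoter entry. A further receptor gene is not reported here. Functions were tested on simulated data. Scripts ran under Python 3.11.15 (scipy 1.17.1, numpy 2.4.6, pandas 2.3.3), and plots were drawn with matplotlib 3.10.9.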

Additional observations from a re-analysis of the deposited data

How the results depend on the processing

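Thresholds, floors, pseudocounts, a filter and library scalings were varied. No log2 ratio of the 9 receptor genes reversed. Ackr2 was no longer counted as higher (0 genes in place of 1) at a fold of 4, a floor of 1 FPKM and a pseudocount of 1 FPKM. Under that floor and that pseudocount, the log2 ratio of Ackr2 was 0.55 and 0.75 in place of 1.67, that of Ccr1 was −4.89 and −4.60 in place of −6.81, and that of Ccr2 was −1.91 and −2.25 in place of −5.24. Ccr7 was at 0 under that floor, since both of its values lie below it. The count of lower receptor genes among the 9 ranged from 2 to 4. Ccr7 was lost at folds of 3 and 4, at a floor or pseudocount of 1 FPKM and with only genes of at least 1 FPKM, Cxcr2 was added at a fold of 1.5 and Cx3cr1 at a floor of 0.01 FPKM. The other receptors counted as lower were 4 at a fold of 1.5, 0 at folds of 3 and 4, 1 (Cmklr1) at a floor or pseudocount of 1 FPKM and among genes of at least 1 FPKM, 6 at a floor of 0.01 FPKM and 4 at a pseudocount of 0.1 FPKM, in place of 2. The signalling genes were 6 at a floor of 1 FPKM. Over all genes, 1867 were lower at a fold of 1.5, 681 at 3, 533 at 4, 463 at a floor of 1 FPKM, 1778 at 0.01 FPKM, 461 at a pseudocount of 1 FPKM and 589 among genes of at least 1 FPKM. The construction of each setting (a stricter or looser cut on the same values) gives these differences. With the shortest coding transcript, the intervals of Cxcr4 (0.987 to 1.65) and Ackr3 (0.916 to 1.62) included 1. No paired analysis was possible because each genotype has 1 library. Depth limits Ccr7, Cx3cr1 and Ackr2 most.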
